A study of Macaca mulatta with 20 samples.

Results

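A list of 38 genes of red cell development, heme synthesis and hemoglobin was followed in whole blood of rhesus macaques before and after irradiation of the thorax. Its genes have known roles in red cells. A probe counted as measured when its spots were well above background on at least 5 of the 20 arrays, and 33 of the 38 genes had such a probe. GYPB, RHAG and RHD were well above background on 0 arrays, and OSBP2 and TRIM58 on 1 array each. The 33 genes stand among 19961 measured probes that carry 15929 gene names.

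The animals were male rhesus macaques (Macaca mulatta) of Chinese origin, which received 10 Gy of x-rays to the whole thorax and no mitigating drug. Blood was drawn into an RNA-stabilizing solution 3 days before irradiation (pre-irradiation) and on days 2, 5 and 30 after it, and each of the 4 groups holds 5 arrays. The same animals served as their own controls, so arrays with the same replicate number were compared as pairs. RNA of 2 animals was pooled for 1 array, and the labels do not tell which. The globin transcripts were depleted with a kit made for human RNA, and the rest was hybridized to arrays of human 60-base probes. The residual globin signal therefore also holds whatever the depletion left behind, and a sequence difference between human and macaque can lower the signal of any probe. In whole blood, fewer cells of a type and less RNA per cell cannot be told apart.

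Red cells arise in the bone marrow, where the transcription factors GATA1, TAL1 and KLF1 switch on the genes for heme, globin and the red cell membrane. Heme is built from glycine and succinyl-CoA in a chain of reactions that ALAS2 starts and ferrochelatase (FECH) ends, with iron that enters through the transferrin receptor (TFRC) and is carried into mitochondria by SLC25A37. Young red cells, the reticulocytes, still carry RNA when they enter the blood. Hemoglobin joins alpha-like with beta-like chains, and the alpha-like and beta-like genes lie in separate clusters.

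Of their probes, 4 are shown, those of SLC4A1, HBQ1 and GATA1, whose values are compared between days, and of HBD as a beta-like globin. They are printed 5′ to 3′ in lower case as the array holds them, with positions on the human build hg19, and a span over 60 bases means that the probe crosses an intron.
SLC4A1, chr17:42327888-42328567, minus strand: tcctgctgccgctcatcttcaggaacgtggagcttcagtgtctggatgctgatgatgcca
HBQ1, chr16:230574-230717, plus strand: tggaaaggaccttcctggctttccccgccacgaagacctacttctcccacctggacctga
HBD, chr11:5255258-5255317, minus strand: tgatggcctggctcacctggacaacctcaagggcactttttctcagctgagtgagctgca
GATA1, chrX:48650853-48651615, plus strand: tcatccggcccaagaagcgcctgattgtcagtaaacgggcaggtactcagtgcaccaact

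Values are log2 signals relative to the 75th percentile of the same array, so that 0 is the brightness of the spot at that percentile and a step of 1 is a doubling. The share of spots well above background ranged from 50.9% to 67.3%. The highest share belonged to day 5 replicate 3, which also had the lowest 75th percentile (7.45 on the log2 scale of the unscaled signal). The position of an array on its slide was the same for every array of a group, so position and group cannot be told apart.

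Across the 33 genes, the changes after irradiation were small on average and differed between animals. At day 2, 16 genes were higher and 17 lower than before irradiation, with a median log2 change of -0.02. At day 5, 25 were higher and 8 lower, with a median of 0.30, and at day 30, 12 were higher and 21 lower, with a median of -0.16. Over all measured probes the median change was -0.04, 0.03 and -0.02 on the 3 days. In limma, paired by replicate number, 0 of the 33 genes passed the threshold of a p-value under 0.005 and an FDR under 10% on any day. Among all probes that threshold was passed by 0.0601% at day 2, by 0% at day 5 and by 0% at day 30.

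At an unadjusted p-value under 0.05, 3 genes were higher and 0 lower at day 2, where 8.47% of all probes were higher and 6.55% lower at that level. At day 5 there were 6 higher and 0 lower, against 7.35% and 3.82% of all probes. At day 30 there was 1 higher and 3 lower, against 7.43% and 10.1%. At day 2, 2 genes were higher in all 5 pairs and 0 lower, against 6.17% and 8.19% of all probes. At day 5 these counts were 8, HBB and HBD among them, and 0, against 7.23% and 5.86%, and at day 30 they were 1 and 1, against 7.41% and 10.5%. With 5 pairs, the smallest p that an exact two-sided test over the signs of the pairs allows is 0.0625.

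Many of the 33 genes lay on the same side within an animal, and that side differed between animals and days. At day 2 the median log2 change over the genes was 0.19, 0.86, -0.48, 0.15 and -0.47 in replicates 1 to 5. At day 5 it was 0.16, 0.25, 0.94, -0.42 and 0.80, and at day 30 it was -0.07, -1.28, 1.02, -0.42 and -0.66. In replicate 2, 31 of the 33 genes were higher at day 2 and 27 were lower at day 30. At these days replicate 3 had the opposite signs, with 23 genes lower at day 2 and 31 higher at day 30. At day 5 both were mostly higher, with 29 genes in replicate 2 and 31 in replicate 3. Without replicate 3, whose day 5 array stands apart, the median over the genes at day 5 was 0.22.

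**Figure D1:**
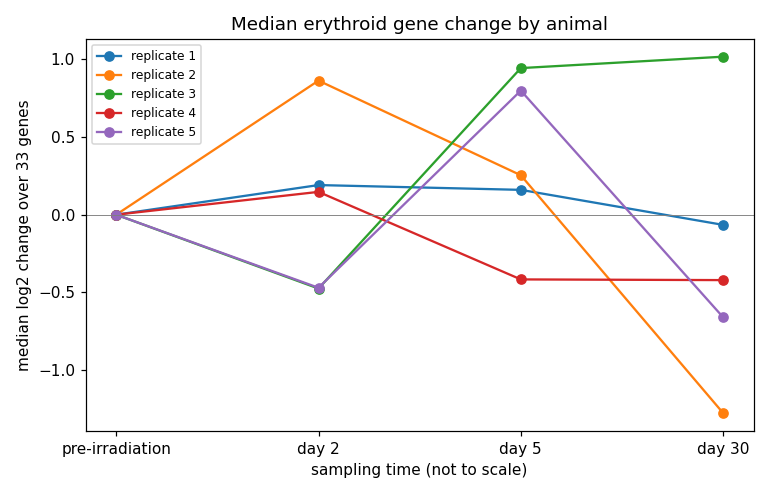
Median log2 change over the 33 erythroid genes from pre-irradiation (vertical axis) at each sampling time (horizontal axis, not to scale), 1 line for each replicate number. The lines of replicates 2 and 3 cross, ending at -1.28 and 1.02 at day 30.

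The spread between pairs was correspondingly wide. The SD of the log2 change over pairs had a median of 0.76, 0.89 and 1.19 over the 33 genes at days 2, 5 and 30, where all probes had medians of 0.43, 0.43 and 0.47. After the mean of each group was taken out, 13 of the 33 genes lay on the same side as the median of the other erythroid genes on at least 17 of the 20 arrays, and 2.11% of all probes lay on the side of the erythroid median that often. Another 10 of the 33 did so on at most 12 arrays. TMCC2, a membrane protein of late red cells, and XK, which carries the Kx blood group antigen, did so on 19 arrays. The arrays are not independent in this count, since each animal gave several, so it is a description.

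**Figure D2:**
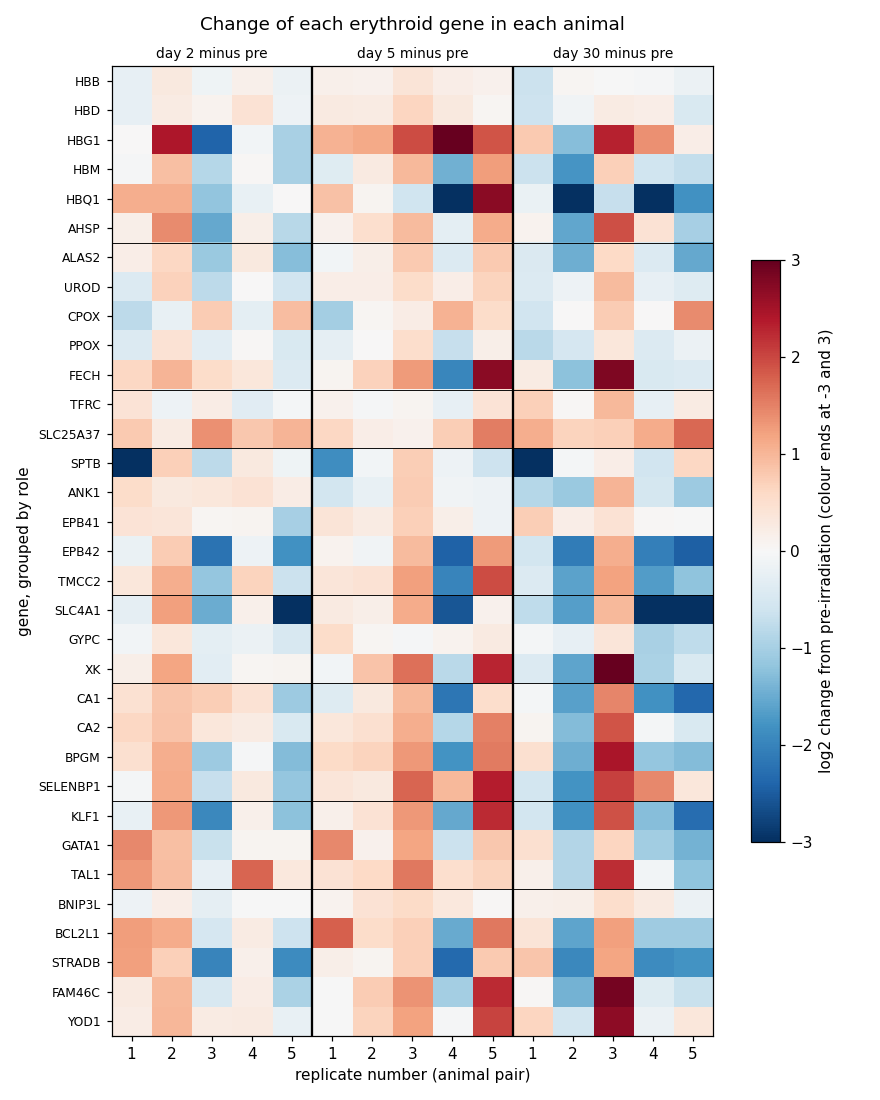
Log2 change of each of the 33 genes (rows, grouped by role) from pre-irradiation in each replicate pair (columns, by day), with red for higher and blue for lower. Replicate 3 is mostly red at day 5 and day 30, and replicate 2 is mostly blue at day 30.

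Among these 10, SLC25A37 lay on the side of the other erythroid genes on 6 arrays and on the side of the neutrophil markers on 18 of 20. HBB, HBD and EPB41, a protein of the membrane skeleton, each lay on the erythroid side on 10 arrays, which was also the median over all probes. The erythroid median itself lay on the side of the neutrophil markers on 6 arrays and on that of the platelet markers on 6.

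Markers of other blood cells were read on the same arrays. The 13 neutrophil markers were all higher on every day, with median log2 changes of 1.0, 0.71 and 0.95. All 17 platelet markers were higher at day 2, with a median of 1.42, and 16 of them had an unadjusted p-value under 0.05. Of 11 monocyte markers, 10, 10 and 11 were higher on the 3 days, with medians of 0.58, 0.37 and 0.43. Of 21 T and NK cell markers, 20 were lower at day 2, with a median of -0.57, and all 10 B cell markers were lower, with a median of -0.56. At day 2 the threshold was passed by the monocyte markers C1QA (2.91) and C1QB (2.51), both with an adjusted p of 0.0639 in limma, and by KLRB1 of the T and NK cell markers (-1.67, adjusted p 0.0965). None of the neutrophil, platelet or B cell markers passed it on any of the 3 days. The part of these values in the erythroid values was not tested.

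Among the globin genes, the fetal gamma chain HBG1 had the clearest difference. Before irradiation its log2 signal was 6.01, 6.54, 6.48, 4.49 and 5.67 in replicates 1 to 5. At day 2 it was 6.02, 8.97, 4.07, 4.40 and 4.70, at day 5 it was 7.06, 7.68, 8.43, 8.08 and 7.55, and at day 30 it was 6.78, 5.27, 8.79, 5.87 and 5.87. Every day 5 array lay above every pre-irradiation array, and the day 2 arrays spread widest. The mean log2 change at day 5 was 1.92 ± 0.36 (SE, n = 5 pairs), a 3.79-fold higher signal, with an adjusted p of 0.279 in limma. HBG1 was the only one of the 33 genes with groups that did not overlap at day 5, against 0.641% of all probes, and there was none at day 2 (1.62%) or day 30 (2.04%).

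A second HBG1 probe gave 1.84 ± 0.32 at day 5. Leaving out 1 replicate at a time kept the log2 change between 1.5 and 2.14. HBG2, a near-identical paralog, is not named by a measured probe, and signal from the pair cannot be told apart. The change at day 2 was -0.21 ± 0.58 and at day 30 it was 0.68 ± 0.44, neither larger than the spread between pairs.

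The HBB probe, which reads the adult beta chain, had the highest mean signal of all probes on the array. Its unscaled log2 signal stayed between 18.72 and 19.02, where the brightest probe of each array lay between 18.72 and 19.17, and no HBB spot was marked as saturated. Its scaled values also follow the 75th percentile they are set against. Scaled, HBB was 11.18, 10.66, 11.04, 10.697 and 10.88 before irradiation, 10.93, 10.95, 10.90, 10.86 and 10.698 at day 2, 11.32, 10.78, 11.43, 10.90 and 11.01 at day 5, and 10.54, 10.73, 11.03, 10.67 and 10.71 at day 30. These groups overlap throughout, and the log2 changes were -0.02 ± 0.15, 0.20 ± 0.14 and -0.16 ± 0.18 on the 3 days (adjusted p 0.958, 0.607 and 0.678). Quantile normalization turned the signs at day 5 and day 30 and median scaling that at day 2. At day 5 the scaled value was higher in 5 of 5 pairs and the unscaled one in 2 of 5, while the 75th percentile was lower in 4 of 5. The delta chain HBD had log2 changes of 0.08 ± 0.16, 0.30 ± 0.15 and -0.15 ± 0.19. At day 5 its scaled value was higher in 5 of 5 pairs and its unscaled one in 3 of 5. HBD was not found among the rhesus gene symbols, and how much of its probe's signal comes from HBB was not tested.

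The alpha-like gene HBQ1, which encodes the theta chain, had its lower values at day 30. Its log2 signal was 6.58, 8.69, 8.58, 8.85 and 6.26 before irradiation and 7.68, 9.78, 7.41, 8.63 and 6.28 at day 2. It was 7.46, 8.78, 7.97, 5.36 and 8.97 at day 5 and 6.38, 4.68, 7.89, 5.24 and 4.43 at day 30. The groups overlap, but all 5 pairs of scaled values were lower at day 30. In replicate 1 that rests on the scaling: HBQ1 went from 6.58 to 6.38 while the 75th percentile rose by 0.58. The change was -2.07 ± 0.55 with an adjusted p of 0.157 in limma, and it lay between -2.53 and -1.58 with 1 replicate left out. HBQ1 passed the threshold with normexp background correction (-2.24), when the filter asked for all 20 arrays (-2.07) and with the deposited log2 values (-2.03). In these settings 952 of 19961, 695 of 15339 and 334 of 5653 probes passed at day 30, against 0 in the fit used.

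The mu chain HBM, another alpha-like gene, was 7.15, 7.44, 6.75, 6.76 and 6.15 before irradiation. It was 7.11, 8.34, 5.89, 6.79 and 5.18 at day 2, 6.79, 7.70, 7.71, 5.32 and 7.41 at day 5, and 6.51, 5.67, 7.46, 6.15 and 5.43 at day 30. The change at day 30 was -0.60 ± 0.31 (adjusted p 0.353), lower in 4 of 5 pairs, and that at day 2 was -0.19 ± 0.28 and at day 5 0.14 ± 0.37. Outside the 38 genes, the embryonic alpha-like chain HBZ and the adult alpha chain HBA2 were measured too. At day 30 HBZ had a log2 change of -0.91 ± 0.19 (adjusted p 0.127) and HBA2 of -0.72 ± 0.20 (adjusted p 0.161), both lower in 5 of 5 pairs. On that day HBZ, HBA2, HBM and HBQ1, of the alpha-like cluster, thus had negative changes, while of the beta-like genes HBG1 had a positive one and HBB and HBD had -0.16 and -0.15. Unscaled, the mean changes at day 30 were 0.00055 for HBB, higher in 3 of 5 pairs, and 0.012 for HBD, higher in 2 of 5. The changes of the alpha-like genes are scaled, so these unscaled values cannot be set against them. In replicate 1 the 75th percentile rose by 0.58 while scaled HBA2 went from 11.01 to 10.47, so unscaled HBA2 was not lower in that pair. The difference between the clusters was not tested.

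AHSP, the chaperone of free alpha chains, was 3.16, 4.54, 3.67, 3.08 and 3.20 before irradiation. It was 3.35, 5.96, 2.14, 3.25 and 2.37 at day 2, 3.28, 5.05, 4.62, 2.79 and 4.31 at day 5, and 3.27, 2.97, 5.60, 3.50 and 2.21 at day 30. Replicate 2 was highest at day 2 and replicate 3 at day 30, and the groups overlap. The changes were -0.12 ± 0.38, 0.48 ± 0.23 and -0.02 ± 0.45 (adjusted p 0.906, 0.479 and 0.989), and median scaling turned the sign at day 30.

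**Figure D3:**
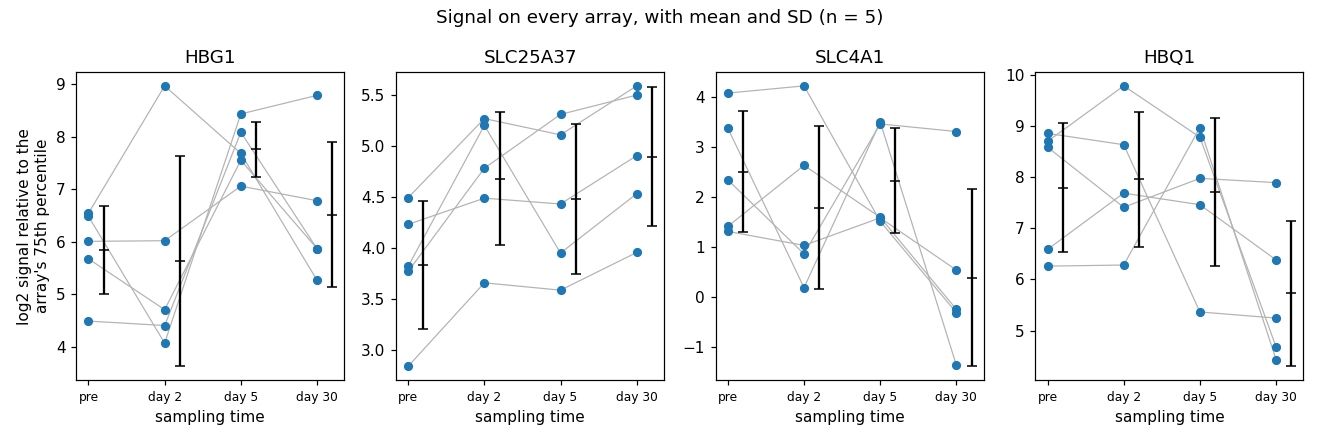
Log2 signal relative to the array's 75th percentile (vertical axis) of HBG1, SLC25A37, SLC4A1 and HBQ1 on every array (points) by sampling time, with grey lines joining arrays of the same replicate number and black bars for mean and SD (n = 5). All day 5 values of HBG1 (7.06 to 8.43) lie above those before irradiation (4.49 to 6.54).

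Of the 5 genes of heme synthesis, 2 were higher and 3 lower at day 2, 4 were higher and 1 lower at day 5, and 2 were higher and 3 lower at day 30. ALAS2, the first and rate-limiting enzyme in red cells, was 10.34, 10.09, 10.37, 10.21 and 10.05 before irradiation, a tight group. It was 10.53, 10.71, 9.26, 10.50 and 8.77 at day 2, 10.27, 10.27, 11.17, 9.79 and 10.84 at day 5, and 9.91, 8.62, 10.96, 9.80 and 8.53 at day 30. The SD was 0.14 before irradiation and 1.01 at day 30, where the mean log2 change was -0.65 ± 0.31 (adjusted p 0.322). Its unscaled log2 signal reached 18.88, where the brightest probe of each array lay between 18.72 and 19.17. Whether the top of the scale narrowed the first group was not tested. The changes at days 2 and 5 were -0.26 ± 0.31 and 0.25 ± 0.22 (adjusted p 0.711 and 0.681), and quantile normalization turned the sign at day 5. UROD, which makes coproporphyrinogen, had a log2 change of 0.36 ± 0.15 at day 5 (adjusted p 0.428), higher in 5 of 5 pairs. CPOX, PPOX and FECH, which carry out the last 3 steps, had changes between -0.32 and 0.56 over the 3 days.

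In iron supply, SLC25A37 was the gene with the smallest p-value of all 33 at days 2 and 30. Its log2 signal was 4.5, 4.23, 3.82, 2.84 and 3.77 before irradiation and 5.27, 4.49, 5.20, 3.66 and 4.78 at day 2. It was 5.11, 4.43, 3.95, 3.59 and 5.31 at day 5 and 5.59, 4.91, 4.53, 3.96 and 5.50 at day 30. The groups overlap because the animals differ before irradiation, but each of the 5 pairs was higher on each day. The changes were 0.85 ± 0.19 (adjusted p 0.166), 0.65 ± 0.22 (adjusted p 0.374) and 1.06 ± 0.20 (adjusted p 0.126). A second probe gave 0.93, 0.71 and 0.80. With replicate 2 left out, SLC25A37 passed the threshold at day 2 (1.0, adjusted p 0.0752). Of all 19961 probes 588 then passed, against 12 with every replicate.

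TFRC was -1.52, -0.86, -1.52, -0.60 and -1.13 before irradiation, -1.12, -1.01, -1.29, -0.93 and -1.19 at day 2, -1.38, -0.89, -1.45, -0.85 and -0.73 at day 5, and -0.80, -0.83, -0.53, -0.85 and -0.88 at day 30. The day 30 arrays all lay above the day 2 arrays, which 1.8% of all probes did in either direction, with a log2 change of 0.33 ± 0.15 (adjusted p 0.404). From pre-irradiation the changes were 0.02 ± 0.16, 0.07 ± 0.15 and 0.35 ± 0.22 (adjusted p 0.969, 0.893 and 0.437), and median scaling turned the sign at day 5.

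Of the membrane proteins, SLC4A1 (band 3), the anion exchanger that anchors the skeleton, had the largest mean decrease of the 33 genes at day 30. It was 1.31, 1.42, 2.34, 4.08 and 3.38 before irradiation and 1.04, 2.64, 0.87, 4.22 and 0.19 at day 2. It was 1.59, 1.60, 3.46, 1.52 and 3.50 at day 5 and 0.54, -0.24, 3.31, -0.31 and -1.36 at day 30. At day 30 replicate 3 stayed high and the other four arrays lay below every pre-irradiation array. The change was -2.12 ± 0.76 (adjusted p 0.221), lower in 4 of 5 pairs, and it was -2.89 without replicate 3 and -1.46 without replicate 5. The other probes of SLC4A1 gave -1.37 ± 0.54 and -1.21 ± 0.48. Changes at days 2 and 5 were -0.72 ± 0.56 and -0.17 ± 0.47 (adjusted p 0.561 and 0.912).

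GYPC, glycophorin C, was 1.67, 2.09, 2.08, 2.34 and 2.03 before irradiation, 1.59, 2.43, 1.80, 2.17 and 1.56 at day 2, 2.22, 2.14, 2.04, 2.45 and 2.31 at day 5, and 1.60, 1.83, 2.44, 1.38 and 1.26 at day 30. The groups overlap, and the changes were -0.13 ± 0.16, 0.19 ± 0.15 and -0.34 ± 0.23 (adjusted p 0.726, 0.653 and 0.46). XK had log2 changes of 0.24, 0.78 and -0.08 on the 3 days.

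In the membrane skeleton, ANK1, ankyrin, was -0.60, -0.69, -1.84, -1.01 and -1.12 before irradiation and -0.06, -0.40, -1.51, -0.58 and -0.90 at day 2. It was -1.15, -0.91, -1.09, -1.13 and -1.28 at day 5 and -1.47, -1.80, -0.83, -1.54 and -2.21 at day 30. Each pair was higher at day 2, by a mean of 0.36 ± 0.14 (adjusted p 0.291), and 4 of 5 were lower at day 30 (-0.52 ± 0.31, adjusted p 0.423). The change at day 5 was -0.06 ± 0.20 (adjusted p 0.936). EPB42, protein 4.2, had a log2 change of -1.21 ± 0.48 at day 30 (adjusted p 0.25), lower in 4 of 5 pairs. A second probe named EPB42 gave 0.22 ± 0.34. It starts at base 43423167 of human chromosome 15, the one used at 43489506, and whether both read the same transcript was not tested. The probes of SPTB, beta spectrin, disagreed at day 2. The one used gave -0.66 ± 0.54, and the others gave 1.37 ± 0.30 and 0.92 ± 0.46. The probe used was not well above background in day 2 replicate 1 (-5.05), and that pair had the lowest change, -3.39. It was well above background on 17 arrays, and the other probes on only 9 and 6, so dim spots limit this comparison.

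Among the red cell enzymes and binding proteins, SELENBP1, a selenium-binding protein, had the smallest p-value of the 4 at day 5. It was 1.01, 1.26, 0.41, -2.93 and -2.04 before irradiation, 0.94, 2.37, -0.28, -2.65 and -3.19 at day 2, 1.38, 1.54, 2.16, -1.97 and 0.31 at day 5, and 0.46, -0.54, 2.45, -1.50 and -1.70 at day 30. Replicates 4 and 5 lay lowest before irradiation and at day 2. The change at day 5 was 1.14 ± 0.32 (adjusted p 0.327), higher in 5 of 5 pairs, and at days 2 and 30 it was -0.10 ± 0.31 and 0.30 ± 0.50 (adjusted p 0.898 and 0.79).

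CA1, carbonic anhydrase of red cells, was 3.0, 6.57, 3.30, 6.71 and 5.74 before irradiation, 3.47, 7.42, 4.05, 7.14 and 4.66 at day 2, 2.61, 6.87, 4.28, 4.54 and 6.27 at day 5, and 2.94, 4.94, 4.76, 4.89 and 3.40 at day 30. Replicates 1 and 3 were low before irradiation, and the groups overlap. The changes were 0.28 ± 0.28, -0.15 ± 0.42 and -0.88 ± 0.50 (adjusted p 0.66, 0.914 and 0.396). CA2 had log2 changes of 0.32, 0.52 and 0.03 and BPGM, which makes 2,3-bisphosphoglycerate, of -0.17, 0.46 and -0.20.

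**Figure D4:**
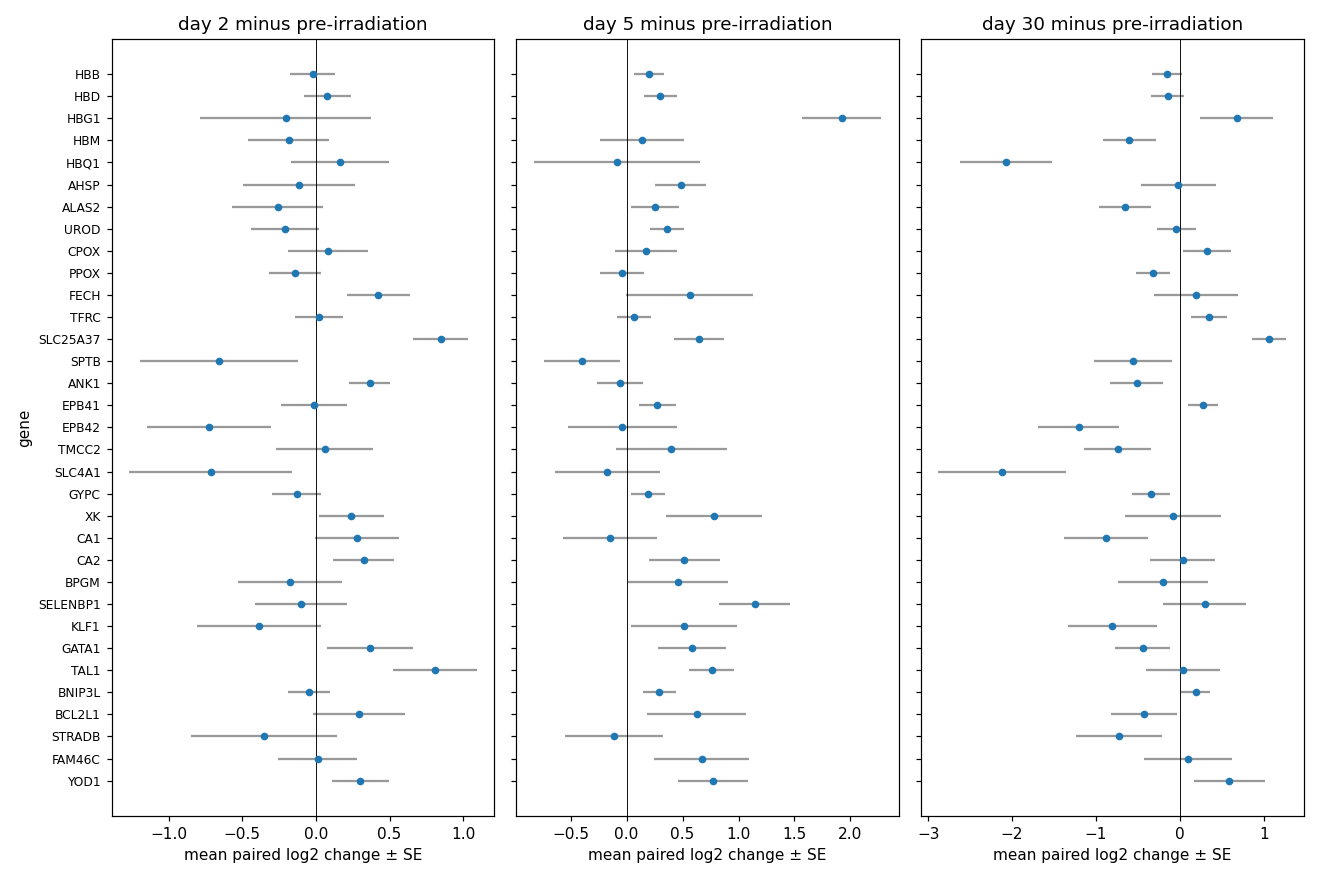
Mean paired log2 change ± SE (horizontal axis, n = 5 pairs, a scale of its own for each day) of the 33 genes (vertical axis) at days 2, 5 and 30. HBG1 stands out at day 5 (1.92), and SLC4A1 (-2.12) and HBQ1 (-2.07) at day 30.

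The transcription factor TAL1 was -3.34, -1.94, -2.27, -2.87 and -2.16 before irradiation and -2.05, -1.01, -2.52, -1.12 and -1.85 at day 2. It was -2.91, -1.33, -0.68, -2.37 and -1.48 at day 5 and -3.19, -2.83, -0.07, -2.96 and -3.36 at day 30. All 5 pairs were higher at day 5 and 4 of 5 at day 2, and at day 30 replicate 3 alone stood far above the others. In pre-irradiation replicate 1 the TAL1 probe was not well above background. The changes were 0.81 ± 0.29 (adjusted p 0.265), 0.76 ± 0.20 (adjusted p 0.319) and 0.04 ± 0.44 (adjusted p 0.972). TAL1 and GATA1 also act in megakaryocytes, and the 17 platelet markers were higher at day 2 by a median of 1.42. After the mean of each group was taken out, TAL1 lay on the erythroid side on 17 of 20 arrays and on the platelet side on 5. For GATA1 these counts were 16 and 8. The part of platelets in these values was not tested.

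GATA1 was -3.11, -1.29, -1.61, -1.23 and -1.38 before irradiation, -1.67, -0.39, -2.28, -1.15 and -1.28 at day 2, -1.66, -1.16, -0.42, -1.88 and -0.58 at day 5, and -2.62, -2.17, -0.97, -2.28 and -2.79 at day 30. Replicate 1 was low before irradiation, and on that array the GATA1 probe was not well above background. The changes were 0.37 ± 0.29, 0.58 ± 0.30 and -0.44 ± 0.33 (adjusted p 0.57, 0.516 and 0.511). With 1 replicate left out, the change at day 2 ran from 0.10 to 0.63. KLF1, which drives the adult beta-globin gene, was 2.84, 5.34, 4.77, 4.40 and 3.93 before irradiation, 2.62, 6.64, 2.84, 4.54 and 2.69 at day 2, 3.0, 5.77, 6.08, 2.86 and 6.16 at day 5, and 2.29, 3.52, 6.69, 3.13 and 1.64 at day 30. The groups overlap widely, and its changes were -0.39 ± 0.42, 0.52 ± 0.47 and -0.80 ± 0.53 (adjusted p 0.684, 0.703 and 0.46).

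BCL2L1, which keeps maturing erythroblasts alive, was -2.06, -0.65, -0.73, -1.06 and -1.41 before irradiation, -0.80, 0.47, -1.24, -0.82 and -2.05 at day 2, -0.28, -0.09, -0.01, -2.57 and 0.17 at day 5, and -1.69, -2.24, 0.49, -2.12 and -2.49 at day 30. Replicate 4 stood below the rest at day 5 and replicate 3 above them at day 30. The changes were 0.30 ± 0.31, 0.63 ± 0.44 and -0.43 ± 0.39 (adjusted p 0.678, 0.615 and 0.606). YOD1, a deubiquitinase, had a log2 change of 0.77 ± 0.31 at day 5 (adjusted p 0.419), higher in 3 of 5 pairs. BNIP3L, which clears mitochondria from reticulocytes, was higher in 5 of 5 pairs at day 5, by 0.29 ± 0.15, and STRADB and FAM46C had log2 changes of -0.11 and 0.67 there. Other BNIP3L probes gave 0.63 ± 0.37 and 0.85 ± 0.37 at day 5. At day 2 they gave 0.27 and 0.33, where the probe used gave -0.05.

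The days were also compared with each other, which uses no pre-irradiation array. Between day 2 and day 5, 28 genes were higher and 5 lower on the later day, where 59.7% of all probes were higher. The median over the genes was -0.03, -0.44, 1.34, -0.72 and 1.95 in replicates 1 to 5, positive in 2 of them. Here 0 passed the threshold (0% of all probes) and 1, HBG1, had an unadjusted p-value under 0.05 (3.56% of all probes). Between day 2 and day 30, 12 were higher and 21 lower, with 0 passing the threshold (0.0501% of all probes) and 3, ANK1, CA1 and HBQ1, at an unadjusted p-value under 0.05 (12.8%). Between day 5 and day 30, 29 of the 33 genes were lower on the later day, with a median log2 change of -0.57 against -0.05 over all probes. In replicates 1 to 5 the median was -0.32, -1.79, 0.40, -0.00077 and -1.98, so that replicate 3 was opposite and replicate 4 near 0. Again 0 passed the threshold (0% of all probes), and 8 had an unadjusted p-value under 0.05 (8.48%), 7 of them lower.

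In that last comparison SLC4A1 had a log2 change of -1.94 ± 0.57, HBQ1 of -1.98 ± 0.69 and GATA1 of -1.03 ± 0.27, each lower in 5 of 5 pairs. HBG1 had a log2 change of -1.25 ± 0.41, ALAS2 of -0.90 ± 0.35, TMCC2 of -1.14 ± 0.48 and HBD of -0.45 ± 0.18. SLC25A37 went the other way, by 0.42 ± 0.17, and was higher in 5 of 5 pairs. The adjusted p of these 8 genes lay between 0.561 and 0.586 in limma. The scaled values also follow the 75th percentile, which was higher at day 30 than at day 5 in every pair. In replicates 1 to 5 it was 7.70, 8.09, 7.45, 7.82 and 7.83 at day 5 and 8.25, 8.16, 7.92, 8.25 and 8.04 at day 30.

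Genes of the same pathways that are not among the 38 were read from further lists. Of 18 measured genes of heme synthesis and iron handling, 12 were higher and 6 lower at day 2, 13 and 5 at day 5, and 8 and 10 at day 30, with 0 passing the threshold on any day. SLC40A1, the iron exporter ferroportin, had a log2 change of 1.16 ± 0.20 at day 2 (adjusted p 0.138), higher in 5 of 5 pairs. Of 20 red cell membrane and blood group genes, 10 were higher at day 2, 14 at day 5 and 9 at day 30. Of 16 erythroid regulators the counts were 12, 11 and 6, and of 29 reticulocyte and late red cell genes they were 15, 21 and 11. The median log2 changes of these 4 lists lay between 0.14 and 0.28 at day 5 and between -0.21 and -0.04 at day 30, and 0 of their genes passed the threshold on any day.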

How the data were processed

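Whole blood RNA was measured on 20 one-color Agilent human arrays. The deposited intensities are processed signals from Feature Extraction (12.0.2.2 in the file headers, 10.7 in the submitters' processing notes), background subtracted and not normalized between arrays. The authors also deposited log2 values of 5885 items, used as an alternative; 0 of its columns were unmapped.

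Spots marked as outliers were dropped, spots of a probe averaged, log2 taken and each array's 75th percentile subtracted. Each gene was read from its brightest measured probe. Probes valued in at least 4 pairs were tested with limma 3.58.1 (R 4.3.3) in the 2 groups compared, with the replicate number as a block, since the study paired its comparisons by animal. Same-numbered arrays correlated by 0.28 on average in their deviations from group means, with a range from -0.16 to 0.65. The mean of the others, -0.07, largely follows from that, since deviations sum to 0 within a group. Adjusted p-values are Benjamini-Hochberg over all tested probes. Genes given in full are a fixed set of 12, any that passed the threshold and the 3 with the smallest p on each day. Members and lists were chosen with earlier results of these data known. The test was tested on simulated data. Of the 38 symbols, 33 are among rhesus gene symbols, 1 more is a synonym, and GYPB, HBD, HBG1 and RHD were not found. Blood counts were not analysed here. The number of arrays limits precision.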

Additional observations from a re-analysis of the deposited data

Results flagged for a closer look

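Among the 68 groups of 5 arrays of the genes given in full, 5 held 1 array far from the other four (a gap over 0.71 of the group's range), where chance gives about 1 in 20 groups. BCL2L1 was lowest in day 5 replicate 4 (-2.57) and highest in day 30 replicate 3 (0.49). GATA1 was lowest in pre-irradiation replicate 1 (-3.11), where its probe was not well above background. TAL1 (-0.066) and TFRC (-0.53) were highest in day 30 replicate 3.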

How the results depend on the processing

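With 0 genes passing the threshold, a few alternatives gave some. At day 2 the count was 1 when the filter asked for all 20 arrays, 1 with the deposited log2 values, 1 with all 20 arrays in 1 fit and 1 without an FDR limit, and 0 to 1 with a replicate left out (1 without replicate 2), in each case SLC25A37. At day 5 it was 1 (HBG1) without an FDR limit. At day 30 it was 5 with normexp background correction (ALAS2, EPB42, HBQ1, SLC25A37 and SLC4A1), 2 with that filter, 3 with the deposited values, 1 with all arrays in 1 fit and 2 without an FDR limit. Among all probes at day 2, 190 of 15339 passed with that filter, 327 of 5653 with the deposited values and 343 of 19961 in 1 fit. Without replicate 2 it was 588 of 19961, and in the fit used 12. At day 30, 952 of 19961 probes passed with normexp, 695 of 15339 with that filter and 334 of 5653 with the deposited values. In 1 fit 121 of 19961 passed, and in the fit used 0. The cause of these differences was not tested. The deposited values hold 27 of the 33 probes, and both they and the filter to all arrays test fewer probes. Without the replicate block the count was 0 in all 6 comparisons, as with the pairing, and no call changed. The median over the genes lay between -0.11 and 0.11 at day 2, 0.19 and 0.56 at day 5, and -0.51 and -0.04 at day 30 with a replicate left out.

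Some signs turned as well. At day 2, normexp gave -0.16 for CA1 and -0.34 for HBQ1, and median scaling 0.00086 for HBB. At day 5, quantile normalization gave -0.021 for ALAS2 and -0.013 for HBB, and median scaling -0.054 for TFRC. At day 30, AHSP was 0.047 with median scaling and 0.022 with the deposited values, and HBB 0.10 with quantile normalization. With 1 replicate left out, the day 2 changes ran from -0.50 to 0.24 for AHSP, -0.10 to 0.035 for HBB, -0.86 to 0.35 for HBG1, -0.46 to 0.00998 for HBM, -0.072 to 0.50 for HBQ1, -0.41 to 0.16 for SELENBP1 and -0.079 to 0.11 for TFRC. At day 5 they ran from -0.26 to 0.066 for ANK1, -0.43 to 0.35 for CA1, -0.14 to 0.53 for HBM, -0.79 to 0.76 for HBQ1, -0.50 to 0.42 for SLC4A1 and -0.018 to 0.15 for TFRC. At day 30 they ran from -0.51 to 0.37 for AHSP, -0.14 to 0.82 for SELENBP1 and -0.50 to 0.35 for TAL1.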
